A study of Rattus norvegicus with 16 samples.

Results

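Endothelial genes, 10 of the 17055 gene symbols counted in each library, were followed in rat liver after polymicrobial sepsis: the adhesion receptors Icam1, Vcam1, Sele and Selp, the junction genes Pecam1 and Cdh5, the sinusoid genes Stab2 and Lyve1, and the regulators of vessel tone and stability Angpt2 and Nos3. They were chosen by name as genes of endothelial activation and of the liver sinusoid, and all 10 were found in the files. Male Sprague-Dawley rats of 10 weeks were induced and maintained with isoflurane, or induced with ketamine-xylazine and maintained with Propofol, and all were ventilated with pure oxygen. Under each anesthetic, rats received either cecal ligation and puncture (CLP, the sepsis groups) or a celiotomy with closure (the control groups), and liver was taken after 8 h of anesthesia. The 48 rats, 12 in each group, were pooled by 3 into 16 libraries. Libraries 1 to 4 were Isoflurane + Sepsis and 5 to 8 their isoflurane controls, and libraries 9 to 12 were Propofol + Sepsis with 13 to 16 as their Propofol controls. Anesthetic and induction drug differ together, and the files of the anesthetics carry different identifier prefixes, so a difference between anesthetics cannot be told apart from these. A pool hides the spread between its rats, and p-values here measure the spread between pools.

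Endothelial activation is the switch by which vessels exposed to cytokines or bacterial products display receptors that slow and hold leukocytes. P-selectin (Selp) is released from stores and E-selectin (Sele) is made anew to let leukocytes roll, while ICAM-1 and VCAM-1 hold them by binding leukocyte integrins. The liver sinusoid is lined by fenestrated scavenger endothelium that carries stabilin-2 and LYVE-1, both receptors that bind hyaluronan, and it is known for little selectin at rest and for a large part played by ICAM-1. Angiopoietin-2 opposes the vessel-stabilizing receptor Tie2, and endothelial nitric oxide synthase (Nos3) makes the nitric oxide that relaxes vessels.

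Levels are given as CPM, read counts scaled to the depth of each library, after TMM normalization, and a fold change is the log2 ratio from the quasi-likelihood test of edgeR, with its standard error (SE). A gene was called when its p-value, adjusted over all genes tested, was below 0.05. Depth was 14199422 to 49937173 reads on genes per library, which gave 1300 to 4243 reads of Icam1 but only 3 to 58 of Selp and 0 to 5 of Sele. Hence 9 members could be tested, and Sele had too few reads. Library 10 (Propofol + Sepsis) held RNA of brain genes, a list written after that library had been seen to differ: Mbp had 3313 reads there and at most 223 in any other library, and Gabra6 had 209 and at most 1. Without library 10 the same 5 members were called under Propofol, and the values of Icam1 and Angpt2 are given both ways. The tissue matched its label, with summed CPM of 10 hepatocyte markers of 85039 to 135355. Cd34, a marker of other vessels, was listed at 0 in all libraries, as was the adhesion gene Cd99l2. Whether reads of these symbols were counted at all is not known.

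In sepsis, 6 of the 9 members tested were called under isoflurane, against 50.0% of all 10361 genes tested, and 5 of 9 under Propofol, against 42.1% of 10348. Under isoflurane Icam1, Selp, Angpt2 and Nos3 were higher (25.7% of all genes were called higher) and Stab2 and Lyve1 were lower (24.4% were called lower). Under Propofol Icam1, Selp, Pecam1 and Nos3 were higher (20.4% of all genes) and Stab2 was lower (21.7%). The members' share of calls was near that of all genes. Icam1, Selp and Nos3 were called higher under both anesthetics, as were 14.3% of all genes, and Stab2 was called lower under both, as were 15.1%.

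**Figure D1:**
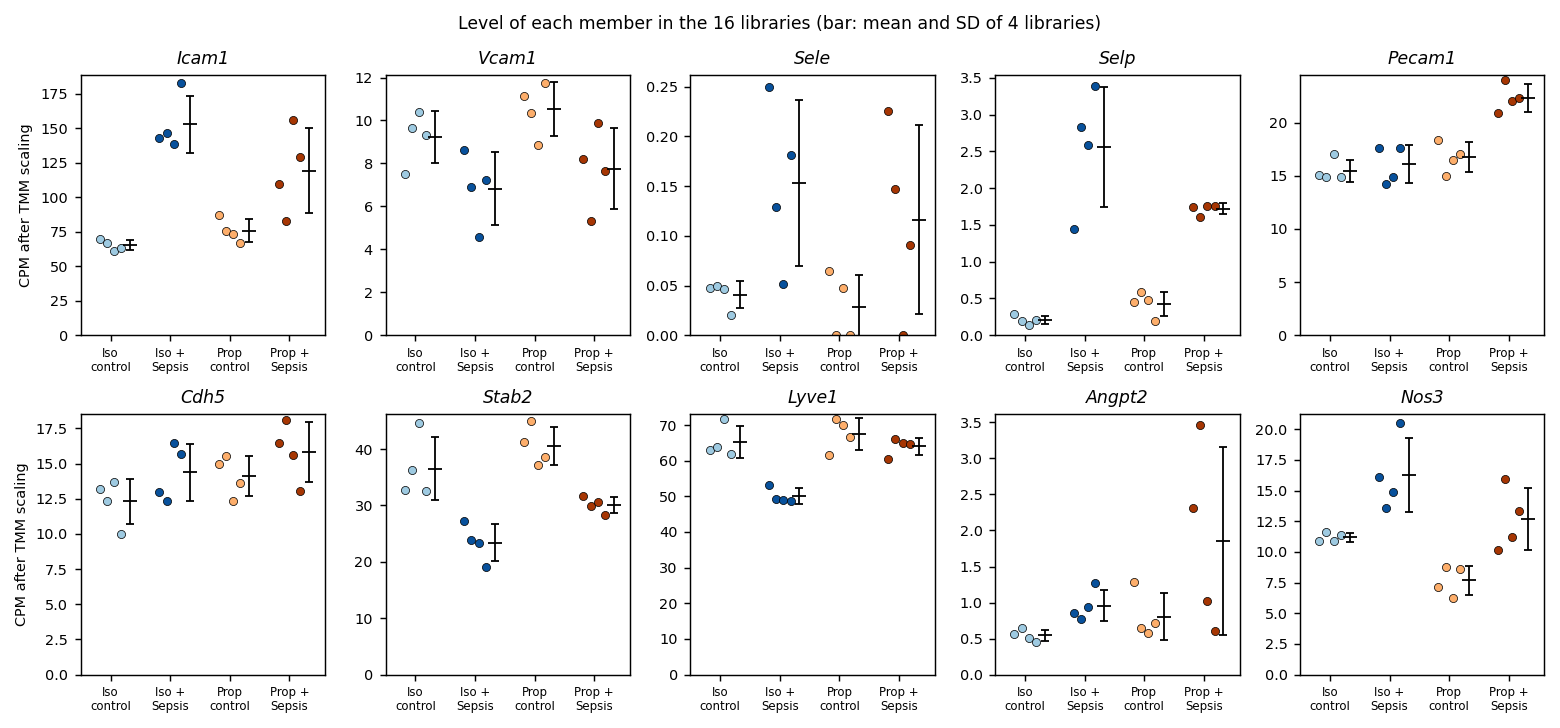
Level of each member in CPM (vertical axis, from 0) in every library (points) of the 4 groups, with the mean and SD of 4 libraries beside them. Selp was near 0 in both control groups and between 1.45 and 3.38 CPM in both sepsis groups, Stab2 was lower in each sepsis group than in its control, and Vcam1 overlapped between sepsis and control under both anesthetics.

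Icam1, whose protein binds leukocyte integrins, was the member with the most reads. Its level in Isoflurane + Sepsis was 143, 146, 139 and 183 CPM in libraries 1 to 4, against 69.3, 66.5, 61.2 and 63.4 CPM in the isoflurane controls. Propofol + Sepsis gave 109, 82.6, 156 and 129 CPM, against 86.8, 75.7, 73.1 and 66.9 CPM in the Propofol controls. Every Isoflurane + Sepsis library was above every control, and 24.3% of all genes tested under isoflurane were higher in sepsis without overlap. Library 10 of Propofol + Sepsis, at 82.6 CPM, was below the highest Propofol control. The mean rose from 65.1 ± 3.56 to 153 ± 20.3 CPM (SD, n = 4) under isoflurane, a log2 fold change of 1.23 (SE 0.0977, edgeR adjusted p = 6.35e-05). Under Propofol it rose from 75.6 ± 8.33 to 119 ± 30.9 CPM, a log2 fold change of 0.65 (SE 0.170, edgeR adjusted p = 0.0126), which was 0.80 without library 10. Of the 9688 genes with enough reads to compare, those whose centred log2 level over the 16 libraries lay nearest to Icam1 were Sbno2, Nfkbia (the inhibitor of NF-κB, itself induced by it) and Slfn2, at root-mean-square distances of 0.189, 0.198 and 0.209 log2 units.

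Vcam1, which binds the integrin VLA-4 and is also made by Kupffer cells, did not follow Icam1. It stood at 8.63, 6.89, 4.56 and 7.25 CPM in Isoflurane + Sepsis and at 7.52, 9.65, 10.4 and 9.33 CPM in the isoflurane controls. In Propofol + Sepsis it was 8.19, 5.33, 9.89 and 7.63 CPM, and in the Propofol controls 11.1, 10.4, 8.85 and 11.8 CPM. The groups overlapped under both anesthetics, and all 4 group means lay between 6.83 and 10.5 CPM. The lowest Propofol + Sepsis value, 5.33 CPM, was that of library 10, which held the brain genes. The log2 fold change was -0.43 (95% interval -0.84 to -0.03, edgeR adjusted p = 0.0708) under isoflurane and -0.45 (-0.83 to -0.06, adjusted p = 0.0601) under Propofol, so neither was called. Both were called when libraries were scaled by their totals (adjusted p = 0.0476 and 0.0391). That scaling moved the median of all genes to -0.06 under each anesthetic. Under isoflurane Vcam1 was called in 3 of 17 settings, also when thinned to the shallowest library and without library 1. Under Propofol it was called in 5 of 17, also by DESeq2 (adjusted p = 0.0490), by limma-voom (0.0488) and without library 11 or 15. The adjusted p ranged from 0.0260 to 0.167 and from 0.0272 to 0.151 over all settings tried. Under Propofol the log2 fold change of Vcam1 ranged from -0.58 to -0.30 over these settings. Nearest to Vcam1 in pattern were Parp2, RGD1311021 and Adck2, at 0.17, 0.184 and 0.185 log2 units.

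The sequences just upstream of Icam1 and Vcam1 are shown because these receptors, both textbook NF-κB targets, had log2 fold changes of opposite sign in sepsis, although that of Vcam1 was not called. RefSeq (build GRCr8) has an upstream sequence for 6 of the 10 members (Icam1, Vcam1, Sele, Stab2, Lyve1 and Nos3), and 250 bases before the start were read 5′ to 3′ on the gene's strand. That of Icam1 is chr8:27829595-27829844 (plus strand) and that of Vcam1 is chr2:206742784-206743033 (minus strand). Capitals mark matches to the motifs searched on both strands.
Icam1: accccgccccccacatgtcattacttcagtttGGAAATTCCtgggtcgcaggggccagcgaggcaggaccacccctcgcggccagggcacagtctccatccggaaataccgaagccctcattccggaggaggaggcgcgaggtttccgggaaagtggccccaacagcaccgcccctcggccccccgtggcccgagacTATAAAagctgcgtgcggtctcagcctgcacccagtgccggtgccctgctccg
Vcam1: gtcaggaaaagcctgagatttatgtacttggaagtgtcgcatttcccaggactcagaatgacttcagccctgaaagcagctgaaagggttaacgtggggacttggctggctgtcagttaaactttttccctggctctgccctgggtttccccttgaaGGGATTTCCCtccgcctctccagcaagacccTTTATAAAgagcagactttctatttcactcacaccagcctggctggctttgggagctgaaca
In Vcam1 the capitals are a match to the κB consensus, GGGATTTCCC, from 93 to 84 bases before the start, and the TATA letters TATAAA on each strand, which overlap each other between 62 and 55 bases. In Icam1 they are TATAAA from 53 to 48 bases and GGAAATTCC from 218 to 210 bases, letters that were added to the search after this sequence had been read. The κB consensus was in 6.33% of all 33469 RefSeq promoters of this length, TATAAA in 12.9% and GGAAATTCC in 0.287%. The AP-1 letters TGANTCA, in 6.34% of promoters, were in none of the 6 windows, and the windows of Sele, Stab2, Lyve1 and Nos3 held none of these motifs.

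Selp had the largest fold change of the members tested under both anesthetics, from very few reads in the controls. In Isoflurane + Sepsis its level was 1.45, 2.84, 2.59 and 3.38 CPM (29, 44, 50 and 56 reads), against 0.282, 0.198, 0.139 and 0.208 CPM in the controls (6, 4, 3 and 10 reads). Propofol + Sepsis gave 1.75, 1.61, 1.76 and 1.76 CPM, against 0.450, 0.582, 0.476 and 0.192 CPM. No sepsis library overlapped a control under either anesthetic, as was so for 24.3% of all genes tested under isoflurane and 21.2% under Propofol in the higher direction. The log2 fold change was 3.59 (SE 0.337, edgeR adjusted p = 1.11e-04) under isoflurane and 2.02 (SE 0.282, adjusted p = 4.88e-04) under Propofol. Selp passed the limit on low counts through its sepsis libraries alone, so its place among the members tested depended on the group where it was high. In the fit with no limit on low counts it was 3.56 (edgeR adjusted p = 6.77e-05) and 2.00 (adjusted p = 0.00148). Genes nearest to it in pattern were Tgm1, the chemokine Ccl19 and Sod2 (mitochondrial superoxide dismutase), at 0.345, 0.401 and 0.402 log2 units.

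Sele was close to the limit of detection. Isoflurane + Sepsis libraries had 5, 2, 1 and 3 reads and each isoflurane control had 1, giving 0.249, 0.129, 0.0518 and 0.181 CPM against 0.0470, 0.0495, 0.0465 and 0.0208 CPM. Propofol + Sepsis libraries had 4, 3, 0 and 3 reads and the controls 1, 0, 1 and 0. Summed over libraries, 11 reads against 4 gave a ratio of 4.27 (95% interval 1.27 to 18.4) under isoflurane and 10 against 2 a ratio of 4.15 (0.885 to 39.0) under Propofol, where intervals cover counting error only. The exact two-sided permutation test of CPM gave p = 0.0286 under isoflurane, the smallest that 4 libraries against 4 allow, and p = 0.171 under Propofol. Under isoflurane p was 0.0571 when libraries were scaled by totals. At these counts its nearest genes in pattern, Kcnj14, Skap2 and Fyn, lay 0.373 to 0.389 log2 units away.

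P-selectin is also made by platelets, and leukocytes carry ICAM-1, so the markers of those cells were read in the same libraries. The summed level of 12 neutrophil markers was 1265 to 2084 CPM in Isoflurane + Sepsis and 151 to 204 CPM in its controls, and 1166 to 3286 CPM in Propofol + Sepsis and 391 to 650 CPM in its controls. Most of each sum was Lcn2, an acute-phase gene that hepatocytes make too, at a mean of 1460 CPM in Isoflurane + Sepsis and 2247 CPM in Propofol + Sepsis. Without it the means of the other 11 summed to 90.3 CPM against 20.5 CPM in the controls under isoflurane and 49.9 CPM against 25.9 CPM under Propofol. Of these, 7 of 9 tested were called higher under isoflurane and 6 of 10 under Propofol, while Mpo, made in immature neutrophils, had at most 3 reads in a whole group. Their part in the rise of Icam1 and Selp was not tested. The 6 platelet and megakaryocyte markers in the files summed to 13.4 to 29.5 CPM against 14.6 to 16.5 CPM under isoflurane and to 20.2 to 26 CPM against 18.4 to 22.1 CPM under Propofol. Most of each sum was Itgb3, at a mean of 17.87 CPM against 14.24 CPM under isoflurane and 22.03 CPM against 19.38 CPM under Propofol. The sums therefore say little about the other markers, of which Gp1ba, Gp9 and Treml1 had at most 6, 5 and 19 reads in a group. The part of platelets in the rise of Selp was not tested. Ppbp, a defining platelet gene, had at most 4 reads in a group, and none of the 2 platelet markers tested was called.

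Pecam1 and Cdh5, which encode the junction proteins PECAM-1 and VE-cadherin, mark endothelium of all vessels, although PECAM-1 is on leukocytes and platelets too. Pecam1 was 17.7, 14.2, 14.9 and 17.6 CPM in Isoflurane + Sepsis against 15.0, 14.8, 17.0 and 14.9 CPM in its controls. In Propofol + Sepsis it was 20.9, 24, 22.1 and 22.3 CPM against 18.4, 15.0, 16.5 and 17.0 CPM. The isoflurane groups overlapped, whereas every Propofol + Sepsis library was above every library of the other 3 groups. Under Propofol 21.2% of all genes tested were higher in sepsis than in the controls without overlap. The share above all of the other 3 groups is not given here. Pecam1 rose under Propofol by a log2 fold change of 0.41 (SE 0.0792, edgeR adjusted p = 0.00272). Under isoflurane it was 0.06 (95% interval -0.15 to 0.28, adjusted p = 0.619), and the sign changed when libraries were scaled by totals. Cdh5 lay between 10.0 and 18.1 CPM in all 16 libraries and overlapped between every pair of neighbouring groups. Its log2 fold change was 0.23 (95% interval -0.08 to 0.55, edgeR adjusted p = 0.183) under isoflurane and 0.15 (-0.11 to 0.41, adjusted p = 0.309) under Propofol.

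Stab2, the scavenger receptor that clears hyaluronan and is among the most particular genes of liver sinusoidal endothelium, fell under both anesthetics. Its level was 27.2, 23.8, 23.4 and 19.2 CPM in Isoflurane + Sepsis and 32.8, 36.2, 44.6 and 32.5 CPM in the isoflurane controls. It was 31.7, 29.8, 30.6 and 28.2 CPM in Propofol + Sepsis and 41.3, 44.9, 37.2 and 38.6 CPM in the Propofol controls. Sepsis and control libraries did not overlap under either anesthetic, as was so for 24.4% and 21.1% of all genes in the lower direction. The log2 fold change was -0.64 (SE 0.135, edgeR adjusted p = 0.00446) under isoflurane and -0.44 (SE 0.0755, adjusted p = 0.00151) under Propofol. In liver homogenate a smaller number of sinusoidal cells and less RNA in each cell cannot be told apart. Closest to Stab2 in pattern were Commd3, Slc39a3 and Dock8, at 0.101, 0.115 and 0.122 log2 units.

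Lyve1, the hyaluronan receptor of sinusoidal and lymphatic vessels, was 53.2, 49.3, 49.1 and 48.6 CPM in Isoflurane + Sepsis against 63.0, 63.9, 71.8 and 61.9 CPM in its controls. Propofol + Sepsis gave 60.5, 66.2, 64.8 and 64.7 CPM against 61.6, 71.7, 70.03 and 66.5 CPM. The 4 Isoflurane + Sepsis libraries were below all 12 others, and the other 3 groups overlapped each other. Under isoflurane 24.4% of all genes tested were lower in sepsis than in the controls without overlap. The share below all 12 other libraries is not given here. Lyve1 fell by 0.38 on the log2 scale under isoflurane (SE 0.0700, edgeR adjusted p = 0.00243), and the log2 fold change under Propofol was -0.08 (95% interval -0.23 to 0.06, adjusted p = 0.328). Ikbkap, Vps39 and Cpsf2 were nearest to it in pattern, at 0.0738, 0.0819 and 0.0833 log2 units.

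The sinusoid genes can also be read against Cdh5 within a library, a ratio that no scaling of libraries changes. Because reads were not divided by transcript length, such a ratio is compared only between groups. A ratio also carries any change of Cdh5 itself, whose log2 fold change was 0.23 under isoflurane and 0.15 under Propofol, neither called. Other pan-endothelial genes, listed below, moved otherwise. Of that list 7 of 18 tested fell and 2 rose under isoflurane, and 5 of 17 fell and 3 rose under Propofol. A rise of Cdh5 would widen a fall in the ratio. Reads of Stab2 per read of Cdh5 were 1.22 to 2.10 in Isoflurane + Sepsis and 2.48 to 3.27 in its controls, and 1.64 to 2.17 in Propofol + Sepsis and 2.76 to 3.02 in its controls. Sepsis and control did not overlap in either case, and the share of all genes without overlap in such a ratio is not given here. Lyve1 per read of Cdh5 was 2.98 to 4.10 against 4.77 to 6.18 under isoflurane and 3.65 to 4.97 against 4.11 to 5.68 under Propofol, with overlap only under Propofol. Icam1 per read of Cdh5 was 8.41 to 11.8 against 4.48 to 6.33 under isoflurane, and 4.56 to 9.97 against 4.87 to 5.93 under Propofol.

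**Figure D2:**
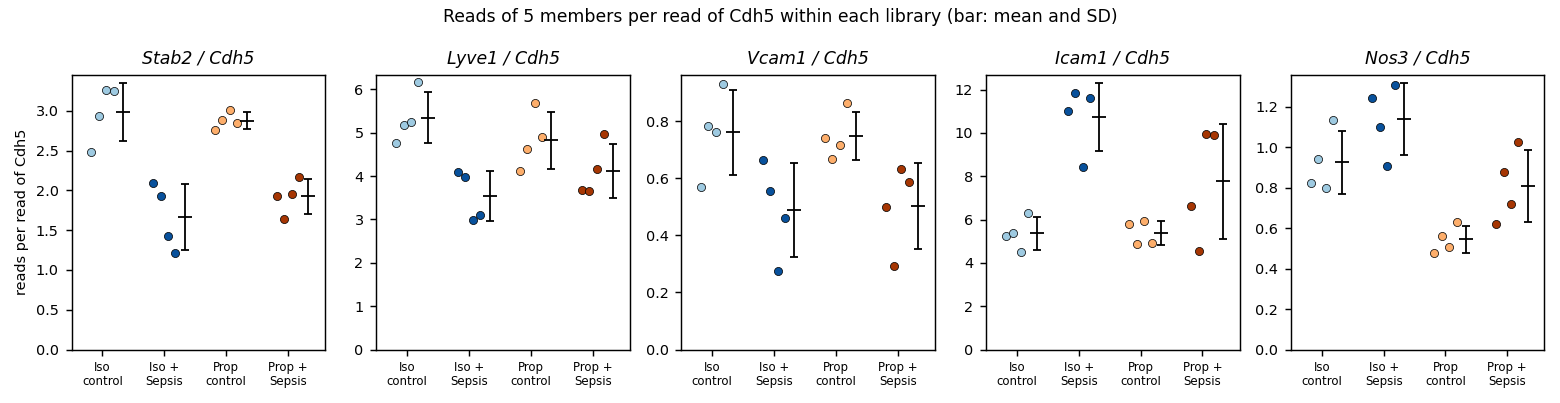
Reads of Stab2, Lyve1, Vcam1, Icam1 and Nos3 per read of Cdh5 (vertical axes, from 0) in each library (points) of the 4 groups, with the mean and SD of 4 libraries. The ratio of Stab2 to Cdh5 was at most 2.17 in every sepsis library and at least 2.48 in every control library, while that of Icam1 was above the controls in all Isoflurane + Sepsis libraries.

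Angpt2, stored in endothelium and released on activation, rested on 11 to 71 reads per library. It was 0.848, 0.773, 0.932 and 1.27 CPM in Isoflurane + Sepsis, above all isoflurane controls at 0.564, 0.643, 0.511 and 0.458 CPM. Of all genes tested under isoflurane, 24.3% were likewise higher without overlap. In Propofol + Sepsis Angpt2 ranged more widely, at 2.32, 3.47, 1.02 and 0.608 CPM, against 1.29, 0.640, 0.571 and 0.720 CPM in the controls. The highest value was that of library 10, which held the brain genes, and the next was that of library 9. Angpt2 rose under isoflurane by a log2 fold change of 0.84 (SE 0.235, edgeR adjusted p = 0.0163), a call lost with adjusted p = 0.0628 without library 8, 0.148 in the fit of all 16 libraries and 0.310 when libraries were thinned to the shallowest. Under Propofol the log2 fold change was 1.19 (SE 0.532, adjusted p = 0.0973), and 0.64 (adjusted p = 0.313) without library 10. It was called with all 16 libraries in 1 fit (adjusted p = 0.0415) and without library 12 (adjusted p = 0.0254). Nearest in pattern were Gramd1b, Abcc9 and Adap1, at 0.362, 0.383 and 0.391 log2 units.

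Nos3 was higher in sepsis under both anesthetics and also differed between the controls. Isoflurane + Sepsis libraries had 16.1, 13.6, 14.9 and 20.5 CPM and isoflurane controls 10.9, 11.6, 10.9 and 11.4 CPM. Propofol + Sepsis libraries had 10.2, 15.9, 11.2 and 13.3 CPM and Propofol controls 7.14, 8.73, 6.24 and 8.59 CPM. Within each anesthetic no sepsis library overlapped a control, as for 24.3% and 21.2% of all genes in the higher direction. The log2 fold change was 0.54 (SE 0.123, edgeR adjusted p = 0.00614) under isoflurane and 0.72 (SE 0.161, adjusted p = 0.00586) under Propofol. Relative to Cdh5 the groups overlapped under both anesthetics, at 0.906 to 1.31 reads of Nos3 per read against 0.796 to 1.14 in the controls under isoflurane and at 0.619 to 1.02 against 0.476 to 0.633 under Propofol.

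An interaction term, isoflurane minus Propofol, addressed whether sepsis moved these genes differently under the 2 anesthetics, with all 16 libraries fitted together. None of the 9 members was called by edgeR, against 2.72% of 10621 genes tested. At an unadjusted p below 0.05 there were 4 members, for which the share over all genes is not given here. DESeq2 called 2, Selp and Lyve1 (adjusted p = 0.0483 and 0.0327). Of all 10621 genes, DESeq2 called 506 higher and 341 lower. For Selp the difference in log2 fold change was 1.56 (95% interval 0.60 to 2.53, edgeR adjusted p = 0.0705), and for Icam1 it was 0.57 (0.12 to 1.02, adjusted p = 0.126). For Lyve1 it was -0.30 (-0.50 to -0.11, adjusted p = 0.0767) and for Pecam1 -0.36 (-0.62 to -0.09, adjusted p = 0.113). Without library 1, Selp, Lyve1 and Pecam1 were called (adjusted p = 0.0114, 0.0267 and 0.0437), and without library 16, Selp was (adjusted p = 0.0384). Over all genes, 865 of 10708 were called higher and 750 lower without library 1, and 164 and 86 of 10706 without library 16. The intervals of the other 5 members (Vcam1, Cdh5, Stab2, Angpt2 and Nos3) included 0, and the widest was that of Angpt2, from -1.75 to 1.00. So the calls of Lyve1 and Angpt2 under isoflurane alone, and of Pecam1 under Propofol alone, were not shown to be differences between the anesthetics by the edgeR test.

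**Figure D3:**
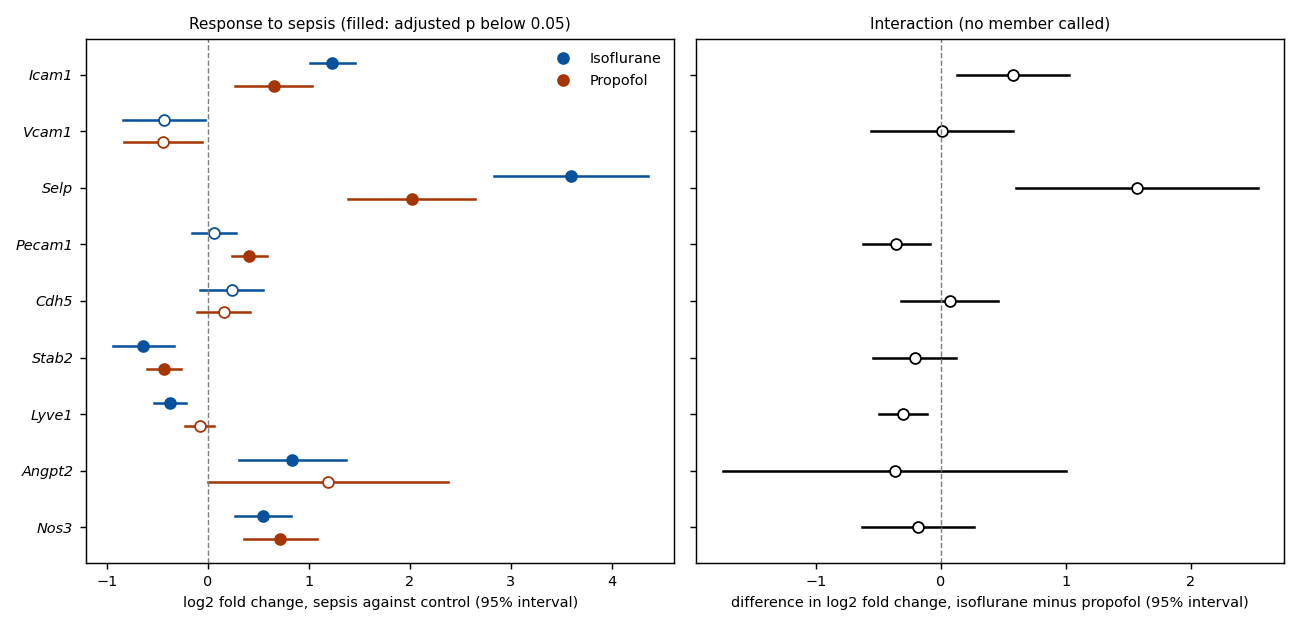
Left, log2 fold change of sepsis against control for the 9 members tested, under isoflurane and Propofol. Right, the difference between these responses, isoflurane minus Propofol. Points are estimates, lines are 95% intervals, and filled points were called. Selp had the largest change at 3.59 and 2.02, Stab2 was negative under both anesthetics, and no point on the right is filled.

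Between the control groups, Nos3 was the member called, as were 26.3% of all genes. It was higher in the isoflurane controls, with a log2 difference of 0.54 (SE 0.153, edgeR adjusted p = 0.0160), and no isoflurane control overlapped a Propofol control. The call was lost without library 15 (adjusted p = 0.0567). Between the sepsis groups 3 of 9 members were called, against 38.6% of all genes, all of them lower in Isoflurane + Sepsis, as were 19.0% of all genes: Pecam1 by a log2 difference of -0.47 (SE 0.0887, edgeR adjusted p = 0.00118), Lyve1 by -0.36 (SE 0.0653, adjusted p = 0.00103) and Stab2 by -0.36 (SE 0.112, adjusted p = 0.0198). The call of Stab2 was lost without library 4 (adjusted p = 0.0588) or library 9 (0.0507). These levels depend on the scaling, since library totals in place of TMM moved the median of all genes to -0.15 between the controls and -0.16 between the sepsis groups. Under library totals, and with that shift included, the log2 difference between the controls was 0.40 for Nos3 (adjusted p = 0.0506), and Selp, Pecam1 and Lyve1 were called at -1.14, -0.26 and -0.19. In order of mean level Selp was lowest in the isoflurane controls and highest in Isoflurane + Sepsis, and neighbouring groups overlapped except at the step from the Propofol controls to Propofol + Sepsis. Stab2 was lowest in Isoflurane + Sepsis, followed by Propofol + Sepsis without overlap, and highest in the control groups, which overlapped each other. Icam1, Vcam1, Cdh5 and Angpt2 overlapped at every step of their order. For comparisons across anesthetics the share of all genes without overlap is not given here.

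A set of 7 lists of genes known to work with these members were written by hand and are described by counts, beside which 25.7% of all genes were called higher and 24.4% lower under isoflurane, and 20.4% and 21.7% under Propofol. Of sinusoidal endothelium, 16 genes were tested under each anesthetic, and Stab2 and Lyve1 are among them. Under isoflurane 9 fell and 1 rose, with a median log2 fold change of -0.38 against 0.01 for all genes, and under Propofol 7 fell and 1 rose, with a median of -0.19 against 0.00. Dnase1l3, a secreted nuclease, fell by 1.06 and 0.81 on the log2 scale under isoflurane and Propofol, and Ehd3, a membrane-trafficking ATPase, fell by 1.69 and 0.87. Rspo3, the Wnt-enhancing ligand of central-vein endothelium, fell by 0.51 and 1.14, while Wnt9b, a Wnt ligand from the same vessels, rose by 1.21 and 0.96. Summed, the 16 genes had 250 to 295 CPM in Isoflurane + Sepsis and 353 to 444 CPM in its controls, and 330 to 368 CPM and 426 ± 29.8 CPM (mean and SD) under Propofol.

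Among pan-endothelial genes, 7 of 18 tested fell and 2 rose under isoflurane (median -0.11), and 5 of 17 fell and 3 rose under Propofol (median -0.17). Kdr, the main VEGF receptor of endothelium, had the largest fall, by 2.17 and 1.82 on the log2 scale. Emcn, the sialoprotein endomucin, fell by 1.46 and 0.90, and Sox18, a transcription factor of endothelium, fell by 1.51 and 0.76. Esam, a junction protein, rose by 0.70 and 0.84. Pan-endothelial genes in the files summed to 233 to 277 CPM in Isoflurane + Sepsis and 272 to 326 CPM in its controls, and to 305 to 324 CPM and 337 to 356 CPM under Propofol.

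Of 13 endothelial adhesion receptors tested, which include Icam1, Vcam1 and Selp, 6 rose and 0 fell under isoflurane (median 0.16) and 4 rose and 3 fell under Propofol (median 0.23). With Selp and Icam1, Cx3cl1 (fractalkine, a membrane-bound chemokine) rose by a log2 fold change of 1.45 under isoflurane, and was 0.88 under Propofol (edgeR adjusted p = 0.133). Podxl, a sialomucin, rose by 1.12 under isoflurane. Under Propofol it was 0.67 (adjusted p = 0.0486), called in 8 of 17 settings, this one included, and 0.37 without library 10. Icam2, the ICAM found on resting endothelium, fell by 0.94 under Propofol and was -0.38 under isoflurane (adjusted p = 0.222), and Jam2, a junction protein, rose by 0.29 and 0.70. On the leukocyte side, 8 of 14 counter-receptors rose and 1 fell under isoflurane, and 6 of 14 rose and 0 fell under Propofol. Itgam, a chain of the Mac-1 integrin that binds ICAM-1, rose by 2.96 and 1.45, and Cd44, which binds hyaluronan and selectins, by 2.67 and 2.43. Itgal, a chain of the LFA-1 integrin that binds ICAM-1, rose by 1.18 and 0.87.

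Of the angiopoietin and VEGF genes, which include Angpt2, 4 of 14 rose and 4 fell under isoflurane, and 3 of 15 rose and 3 fell under Propofol, shares near those of all genes. Vegfa rose by a log2 fold change of 1.85 under isoflurane, or 1.10 without library 3, and was -0.12 under Propofol (edgeR adjusted p = 0.362). Vegfb rose by 0.94 and 0.91 under isoflurane and Propofol, and Flt1, the decoy-like VEGF receptor, by 0.69 and 0.81. Flt4, the receptor of lymphatic and sinusoidal vessels, fell by 0.96 and 0.47, and the co-receptor Nrp1 by 0.97 and 0.37. Among nitric oxide genes, which include Nos3, 9 of 22 rose and 7 fell under isoflurane, and 8 of 21 rose and 4 fell under Propofol. Nos2, the inducible synthase, rose by 5.07 and 3.37, from few reads in the controls: 28 summed over the isoflurane and 17 over the Propofol controls. Its controls were at 0.0929 to 0.354 CPM under isoflurane and 0.0480 to 0.524 CPM under Propofol. Like Selp, Nos2 passed the limit on low counts because of its sepsis libraries, and the counts of these lists include such genes. Ednrb, the endothelin receptor of endothelium, rose by 1.64 and 1.25. Cav1, caveolin-1, which holds the endothelial synthase inactive, fell by 1.29 and 0.91.

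Of the genes of endothelial hemostasis, 8 of 13 rose and 2 fell under isoflurane (median 1.35), and 6 of 14 rose and 2 fell under Propofol (median 0.37). Tfpi2, a protease inhibitor, rose by a log2 fold change of 3.01 and 1.63, Plat, the tissue plasminogen activator, by 2.60 under isoflurane, or 1.48 without library 4, and Procr, the endothelial protein C receptor, by 1.35 and 1.49. Plat was 0.62 under Propofol (edgeR adjusted p = 0.206). Tfpi2 had 56 reads summed over the isoflurane controls and 47 over the Propofol controls. Its isoflurane controls went down to 0.186 CPM, so under isoflurane it too needed its sepsis libraries to pass the limit on low counts. Tissue factor (F3) fell by 1.64 and 1.07, and Vwf, which shares its endothelial store with P-selectin, had a log2 fold change of -0.49 under isoflurane (edgeR adjusted p = 0.0482), called in 8 of 17 settings, this one included, and -0.24 under Propofol (adjusted p = 0.0564). Many of these genes are also made by hepatocytes, stellate cells or leukocytes, and the cell of origin was not tested. Of 9 stellate cell markers tested, 3 rose and 1 fell under isoflurane and 2 rose and 3 fell under Propofol, and of 7 Kupffer cell markers 5 rose and 1 fell, and 3 rose and 1 fell.

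**Figure D4:**
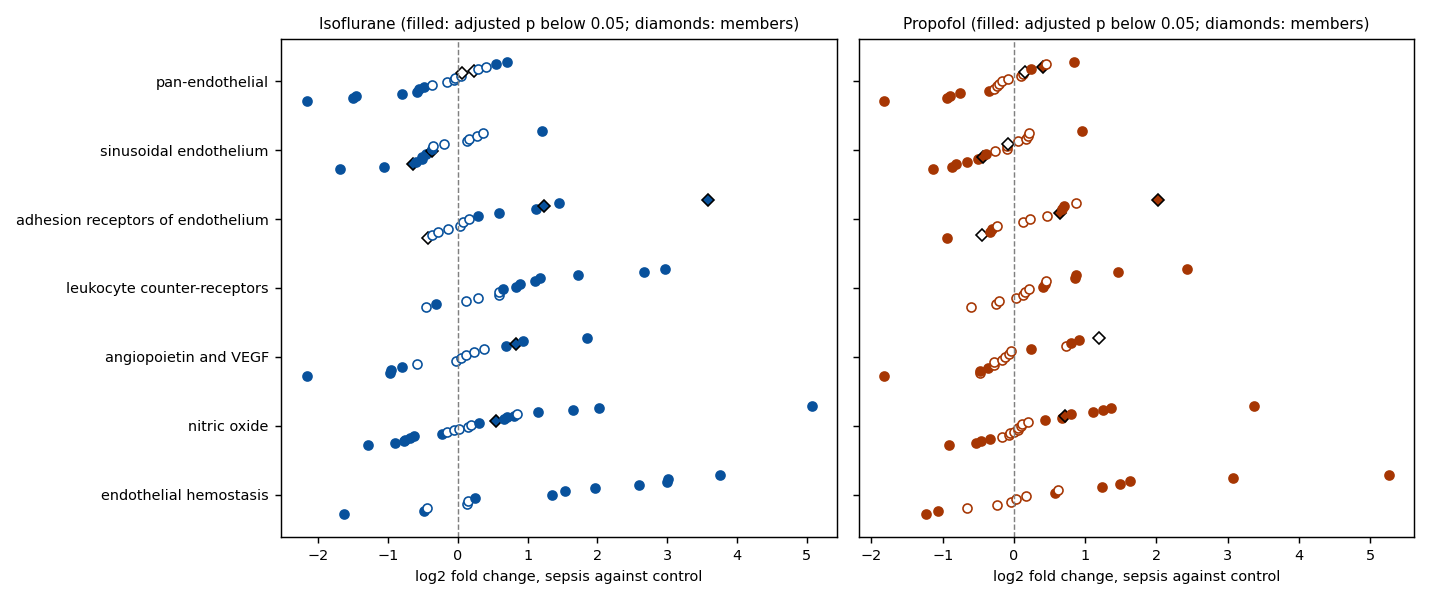
Log2 fold change of sepsis against control (horizontal axis) of each tested gene in the 7 lists (rows) under isoflurane and Propofol. Filled points were called and diamonds are members. Sinusoidal genes lay mostly left of 0, with medians of -0.38 and -0.19, and leukocyte counter-receptors mostly right of it.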

How the data were processed

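Liver RNA was pooled from 3 rats per library. Per the labels, polyadenylated RNA was made into strand-keeping libraries that were read from 1 end. The authors deposited counts, whole numbers of reads per gene symbol without normalization, and the submitters' processing notes name STAR and the rn5 build. The sources used here do not name the counting program or annotation. Reads without a gene (21.6% to 25.4%) and ambiguous reads (1.07% to 1.35%) were left out. Groups came from the labels. No pair of libraries in a group agreed within sampling noise (chi-square per degree of freedom 3.47 to 102).

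Genes were kept by filterByExpr (minimum count 10, minimum total count 15) and tested in R 4.3.3 by quasi-likelihood F tests (edgeR 4.0.16) after TMM scaling, with Benjamini-Hochberg adjustment over all genes tested. Each anesthetic was fitted alone (4 libraries against 4). The interaction and the comparisons across anesthetics came from a fit of 16 libraries. TMM factors were 0.920 to 0.979 in isoflurane and 1.02 to 1.09 in Propofol libraries. Scripts were tested on simulated data. Sele was tested by exact permutation over 70 assignments. Pattern distances used log2 CPM with a prior count of 2, over genes tested in all 16 libraries with a mean of at least 1 CPM. Alternatives were DESeq2 1.42.0, limma-voom (limma 3.58.1), RLE and library-total scaling, other limits on low counts, thinning, other sets of libraries, a stricter threshold and leaving out each library. Named genes were all members and, from each list, up to 3 called genes per direction and anesthetic by size of change, at a mean of at least 1 CPM, of which 1 is not reported here. Members and lists were chosen with earlier results of these data known.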

Additional observations from a re-analysis of the deposited data

Results flagged for a closer look

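Among the 40 sets of 4 libraries (10 members in 4 groups), 4 held a library flagged as set apart from the other 3 of its group, where chance gives about 1 in 20. The flag divides the gap to the nearest library by the range of the 4, so it can mark a small difference. They were Sele in library 8 of the isoflurane controls (0.0208 CPM, from 1 read in the deepest library), Selp in library 10 of Propofol + Sepsis (1.61 CPM), Pecam1 in library 7 of the isoflurane controls (17.0 CPM) and Lyve1 in library 1 of Isoflurane + Sepsis (53.2 CPM). Selp in library 10 rested on 33 reads and was close to the 1.75, 1.76 and 1.76 CPM of libraries 9, 11 and 12 (31, 33 and 58 reads).

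Of the genes in the 7 lists, 3 had a response to sepsis that differed between the anesthetics by the edgeR interaction test. For Plau, the urokinase plasminogen activator, the difference was 1.37 on the log2 scale (adjusted p = 0.0106), with a fold change of 0.15 under isoflurane and -1.23 under Propofol. For Gch1, which makes the cofactor of nitric oxide synthases, it was 0.62 (adjusted p = 0.0249), and the gene was called under both anesthetics in opposite directions, at 0.30 and -0.33. For Ddah1, which degrades an inhibitor of nitric oxide synthases, it was -0.57 (adjusted p = 0.0476), with -0.64 under isoflurane and -0.07 under Propofol.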

How the results depend on the processing

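For the members, 371 values kept their direction and side of the threshold in other settings and 415 did with 1 library left out. Calls were gained in 15 and 15 cases, lost in 8 and 8, and the sign changed in 4 and 10. For the other named genes, 751 and 643 values kept both and 28 and 46 calls were lost. Fewest calls held for Vwf under isoflurane and Podxl under Propofol (8 of 17 settings each, the main one included) and for Jam3 and Tie1 under Propofol (9 of 17 each). The interaction count was 0 members in the main test, 2 with DESeq2 and 0 to 3 with 1 library left out, the 3 without library 1 (Lyve1, Pecam1 and Selp) and the 1 without library 16 being Selp. Over all genes the interaction called 176 genes higher and 113 lower, 506 and 341 with DESeq2, and 865 and 750 without library 1. Between the controls 1 member was called, 3 with library totals, 2 in a fit of those 8 libraries alone, 0 at an adjusted p below 0.01 and 0 to 2 with 1 library left out. Between the sepsis groups 3 members were called, 5 with DESeq2 and 2 to 4 with 1 library left out. Scaling by totals changed the split of higher and lower calls over all genes from 2107 and 2245 to 1674 and 2704 under Propofol, from 1379 and 1413 to 689 and 2814 between controls, and from 2085 and 2014 to 1158 and 3458 between sepsis groups. It also turned Pecam1 under isoflurane to -0.0066. In the interaction, Angpt2 turned to 0.012 with limma-voom, and Vcam1 to -2.5e-05 with no limit on low counts and -0.031 when thinned. With 1 library left out, the interaction ranged from -0.13 to 0.16 for Vcam1, from -0.022 to 0.15 for Cdh5 and from -0.69 to 0.17 for Angpt2, which turned without library 10. Without library 10 the same 5 members were called under Propofol, and between the sepsis groups 4 were, Nos3 being added (adjusted p = 0.0147). For Sele under isoflurane, leaving out any 1 control gave an exact permutation p of 0.0571, above the threshold. No paired analysis was possible because the titles number the samples 1 to 16 and no number is shared between groups. Depth limits Sele, Selp and Angpt2, and pools of 3 rats hide the spread between animals.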
